A study of Mus musculus with 10 samples.

Results

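The renin-angiotensin and endothelin systems were followed in right atrium through 9 genes, chosen by symbol: Agt, Ace, Agtr1a and Agtr2 of the angiotensin branch, and Edn1, Edn3, Ece1, Ednra and Ednrb of the endothelin branch. All 9 were among the 23337 genes of the deposited table, and 7 had enough reads to be tested. RNA-seq was made from right atria of 10 mice, 1 library per mouse, on a mixed strain background: 4 were labelled control and 6 carried R26Cre-driven removal of Tbx5, a T-box transcription factor of the atrium. The study's paper gives the controls of its left atrial RNA-seq as R26CreERt2 mice and the mutants as Tbx5fl/fl;R26CreERt2 mice, both with the recombinase. The labels of these right atrial libraries name no alleles, so whether their control mice carry the recombinase is not given. Cre under the ubiquitous R26 promoter cuts out exon 3 of Tbx5 in every cell type reached, not in cardiomyocytes alone, after tamoxifen at 0.167 mg per day for 3 days, and atria were taken 1 week later. The same tamoxifen course is given for the control mice. M and F in the names of the mice are the labelled sexes, and both groups held mice labelled male and female. Ages are given as 8 to 10 weeks in one label and 6 to 8 weeks in another.

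Angiotensin II is made in steps. Renin cuts angiotensinogen, the product of Agt, and angiotensin-converting enzyme (Ace) trims the fragment to the active peptide, which acts mainly through the type 1 receptor (Agtr1a). Endothelin-1, a vasoconstrictor peptide made mostly by endothelial cells, is released from its precursor (Edn1) by endothelin-converting enzyme (Ece1). It acts through the type A receptor (Ednra) of smooth muscle and muscle cells, and through the type B receptor (Ednrb), which in endothelium also clears the peptide. Both systems raise vascular tone and act on growth and matrix in the heart.

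The libraries held between 5703775 and 7095141 counts. Tbx5 itself, the targeted gene, went against the labels: it had 184 to 224 CPM (counts per 1000000, scaled to the library size adjusted by the trimmed mean of M values, TMM) in mice labelled control and 275 to 475 CPM in mice labelled mutant, a log2 fold change of 0.94 (edgeR adjusted p = 0.000495). A count per gene cannot show whether exon 3 is missing, and every direction given here is relative to the labels. In all 4 mice labelled control, Xist and Ddx3y were those of the other sex than the label, which was not so in the 6 mutant mice. In mutant M3, 38.9% of reads fell on the ribosomal repeat Rn45s, against 0.268% to 1.49% elsewhere. Of the 13084 genes tested, 15.7% were called: 8.50% higher and 7.16% lower in mice labelled mutant. A gene was called at an adjusted p under 0.05, a fold over 1.5 and an authors' normalized signal averaging over 1 in control mice.

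The stretches before the start sites of Edn1 and Ace, the 2 genes of the 9 that rose, and of Ednra, which had the largest fall, are shown to give the sequence these changes lie beside. They were taken from the RefSeq promoters of GRCm38.p6, which held 8 of the 9 genes, as the 250 bases upstream of a start, 5′ to 3′ on the strand of the gene. Capitals mark matches, on either strand, to 4 motifs: the T-box core GGTGTG, the GATA motif AGATAA, the TATA box TATAAA and the AP-1 motif TGANTCA.
Edn1, chr13:42301226-42301475, plus strand: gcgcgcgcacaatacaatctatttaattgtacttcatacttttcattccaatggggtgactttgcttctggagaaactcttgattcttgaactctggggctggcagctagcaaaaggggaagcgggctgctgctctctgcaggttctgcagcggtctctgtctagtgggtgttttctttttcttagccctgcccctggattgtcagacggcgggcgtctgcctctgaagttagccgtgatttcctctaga
Ace, chr11:105967698-105967947, plus strand: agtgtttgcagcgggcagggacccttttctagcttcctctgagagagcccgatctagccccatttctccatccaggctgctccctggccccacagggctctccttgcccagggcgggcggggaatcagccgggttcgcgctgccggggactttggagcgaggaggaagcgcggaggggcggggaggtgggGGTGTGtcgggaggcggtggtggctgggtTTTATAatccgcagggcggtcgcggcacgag
Ednra, chr8:77724453-77724702, minus strand: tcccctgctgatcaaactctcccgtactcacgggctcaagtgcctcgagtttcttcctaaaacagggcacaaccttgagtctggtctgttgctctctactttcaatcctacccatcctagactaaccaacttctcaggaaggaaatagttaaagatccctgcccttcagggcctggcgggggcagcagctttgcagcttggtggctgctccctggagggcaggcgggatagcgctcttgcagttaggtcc
In the Ace stretch the T-box core began 60 bases before the start and the TATA box, on the opposite strand, 31 bases before it. The windows of Edn1 and Ednra held none of the 4 motifs. The 8 genes had 12 windows, since Ace has 2 starts and Ece1 4. The T-box core was present in 3 of the 12 windows (1 of Ace, and 2 of Ece1 that overlap and share the match) and in 16.3% of 32851 promoter windows of the same length. The TATA box was in 2 of 12 (Ace and Agt) and in 12.4%, the GATA motif in 0 of 12 and in 9.99%, and the AP-1 motif in 0 of 12 and in 6.75%. A match of letters is a description of the window and not a binding site.

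Ligand and converting-enzyme transcripts rose on one branch each, and both endothelin receptors fell. Edn1 rose 3.92-fold and Ace 2.43-fold in mice labelled mutant, while Ednra was 1.68-fold and Ednrb 1.58-fold lower. Agt, Agtr1a and Ece1 did not pass the test, and Agtr2 and Edn3 were at or under 2 reads in every library. So 4 of the 7 tested genes were called, 2 in each direction, against 15.7% of all genes tested, and their median log2 fold change was -0.08. CPM of the 2 groups did not overlap for 3 of them (Edn1, Ace and Ednra), against 22.7% of all genes tested. Both comparisons are for genes chosen with earlier results of these data known. Since these are whole atria, a change in the number of cells of a type and a change in the RNA per cell cannot be told apart.

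**Figure D1:**
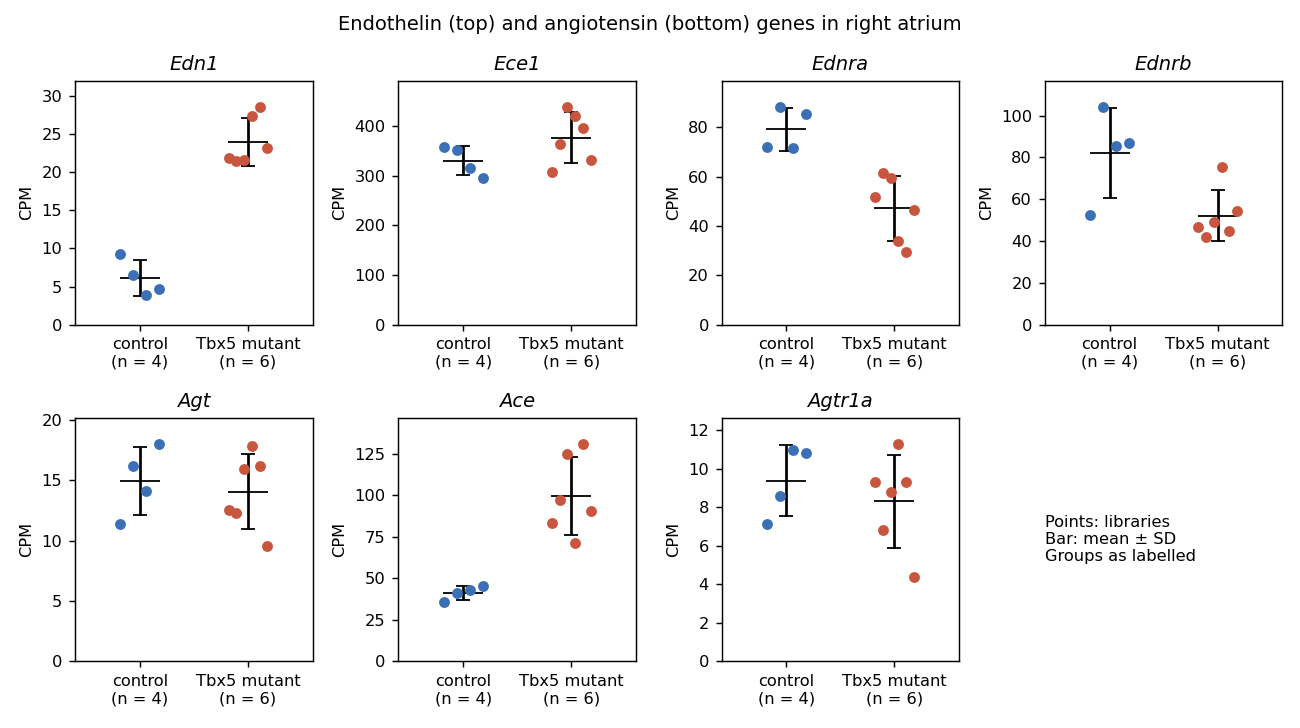
CPM of the 7 tested genes in each library, with 4 libraries labelled control and 6 labelled Tbx5 mutant; points are libraries, bars the mean and SD, and each panel has its own axis from 0. The points of the groups are apart for Edn1, Ace and Ednra and overlap in the other panels.

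Among the peptide precursors, Edn1 (ENSMUSG00000021367.8, chr13:42301476-42307990 of GRCm38, plus strand, 5 exons) changed most. Edn1 was at 9.29, 6.45, 3.92 and 4.74 CPM in control M1, M2, F1 and F2. In mutant F1, F2, F3, M1, M2 and M3 it was at 21.8, 21.5, 21.6, 27.4, 28.5 and 23.1 CPM. The lowest mutant mouse was thus above the highest control mouse, and the mutant values lay close together. Within the mutant group the mice labelled male (23.1 to 28.5 CPM) were above those labelled female (21.5 to 21.8 CPM). Control mice labelled male were also above those labelled female, though Xist and Ddx3y went against the control labels. Neither order was tested. The means were 6.10 ± 2.37 (SD, n = 4) and 24.0 ± 3.17 CPM (SD, n = 6), a log2 fold change of 1.97 ± 0.20 (SE, edgeR adjusted p = 1.36e-05). The values rest on 25 to 65 reads in a control library and 85 to 196 in a mutant library. The two-sided exact permutation test over the 210 splits of the mice gave p = 0.00952 for Edn1, the smallest it can give.

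Agt, the angiotensin precursor (chr8:124556534-124569706, minus strand, 5 exons), did not pass the test. Agt was at 11.4, 16.2, 14.1 and 18.0 CPM in control M1, M2, F1 and F2 and at 12.5, 12.3, 15.9, 17.8, 16.2 and 9.53 CPM in mutant F1, F2, F3, M1, M2 and M3. The groups overlapped over most of their range, and the lowest value was that of mutant M3, the library rich in Rn45s. The log2 fold change was -0.08, with an interval of 1.96 standard errors from -0.42 to 0.26 (adjusted p = 0.757). Edn3, the precursor of endothelin-3 (chr2:174760619-174784042, plus strand), had no read in any library but mutant F2, which had 2. For Edn3 and other genes this low, 3 counts, taken as the smallest detectable number, correspond to 0.40 to 0.817 CPM depending on the library.

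Of the 2 converting enzymes, Ace (chr11:105967945-105989964, plus strand, 25 exons in its longest coding transcript) rose. Ace was at 35.6, 40.9, 42.8 and 45.2 CPM in control M1, M2, F1 and F2. In mutant F1, F2, F3, M1, M2 and M3 it was at 83.6, 97.0, 125, 71.1, 131 and 90.7 CPM. Control mice differed little, whereas mutant mice spread widely, and the groups did not overlap. Ace had means of 41.1 ± 4.10 (SD, n = 4) and 99.7 ± 23.5 CPM (SD, n = 6), a log2 fold change of 1.28 ± 0.16 (SE, adjusted p = 7.35e-05; exact permutation p = 0.00952). Ece1 (chr4:137862237-137965229, plus strand) had the highest level of the 9 genes and was not called. Ece1 was at 357, 351, 316 and 296 CPM in control M1, M2, F1 and F2 and at 308, 364, 438, 421, 396 and 331 CPM in mutant F1, F2, F3, M1, M2 and M3. Control F2 lay below all mutant mice, and the other control values lay in the lower part of the mutant range. The log2 fold change was 0.19, with an interval from -0.03 to 0.41 (adjusted p = 0.223).

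Both endothelin receptors fell. Ednra (chr8:77663031-77724464, minus strand, 8 exons) was at 72.0, 88.2, 71.5 and 85.4 CPM in control M1, M2, F1 and F2. In mutant F1, F2, F3, M1, M2 and M3 it was at 51.9, 61.7, 59.4, 34.1, 29.4 and 46.3 CPM. Every mutant mouse lay below every control mouse, and within the mutant group the 3 labelled female (51.9 to 61.7 CPM) were above the 3 labelled male (29.4 to 46.3 CPM), an order that was seen in the values and not tested. Ednra had means of 79.3 ± 8.76 (SD, n = 4) and 47.1 ± 13.2 CPM (SD, n = 6), a log2 fold change of -0.75 ± 0.18 (SE, adjusted p = 0.0066; exact permutation p = 0.00952).

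Ednrb (chr14:103814625-103844402, minus strand, 8 exons) was at 52.3, 104, 85.4 and 86.8 CPM in control M1, M2, F1 and F2. In mutant F1, F2, F3, M1, M2 and M3 it was at 46.8, 41.8, 48.9, 75.4, 44.7 and 54.5 CPM. Here the groups overlapped: control M1 was below mutant M1 and M3, and the other control mice were above all mutant mice. Ednrb had means of 82.1 ± 21.6 (SD, n = 4) and 52.0 ± 12.2 CPM (SD, n = 6), a log2 fold change of -0.66 ± 0.18 (SE, adjusted p = 0.0146; exact permutation p = 0.0286). The call of Ednrb was lost without control M2, the highest mouse, where the log2 fold change was -0.52 (adjusted p = 0.0605).

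The angiotensin receptors did not pass or could not be tested. Agtr1a (chr13:30336441-30382867, plus strand) was at 7.14, 8.60, 11 and 10.8 CPM in control M1, M2, F1 and F2 and at 9.31, 6.80, 8.78, 11.3, 9.32 and 4.36 CPM in mutant F1, F2, F3, M1, M2 and M3. The groups overlapped, with mutant M3 again the lowest, and the log2 fold change was -0.15, with an interval from -0.57 to 0.26 (adjusted p = 0.604). Its close copy Agtr1b, the second type 1 receptor gene of the mouse, was listed at 0 in all 10 libraries. How reads shared by the 2 copies were counted is not given in the sources used here, so that their levels are uncertain. Agtr2, the type 2 receptor gene (chrX:21484544-21489164, plus strand), had 3 reads in the 4 control libraries and 4 in the 6 mutant libraries, with at most 2 in any library, and no difference was detectable at this depth.

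To compare genes with each other, CPM was divided by the length in kb of the longest coding transcript of GENCODE M21. On this scale Ece1 stood first in mice labelled control, with 68.5 ± 6.01 CPM per kb (SD, n = 4). Ednra with 21.9 ± 2.42 and Ednrb with 20.0 ± 5.27 followed and did not differ beyond their spread. Ace with 8.38 ± 0.835 and Agt with 7.90 ± 1.5 CPM per kb came next and were again within their spread, and Agtr1a with 4.27 ± 0.840 and Edn1 with 2.85 ± 1.11 were the lowest of the tested genes. In mice labelled mutant, Ece1 remained first with 78.1 ± 10.6 CPM per kb (SD, n = 6), but Ace followed with 20.3 ± 4.78. Ednra (13.0 ± 3.64), Ednrb (12.7 ± 2.98) and Edn1 (11.2 ± 1.48 CPM per kb) lay within their spread of each other, ahead of Agt (7.41 ± 1.64) and Agtr1a (3.78 ± 1.10). Agtr2 was at 0.0344 and 0.0308 CPM per kb in the 2 groups.

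**Figure D2:**
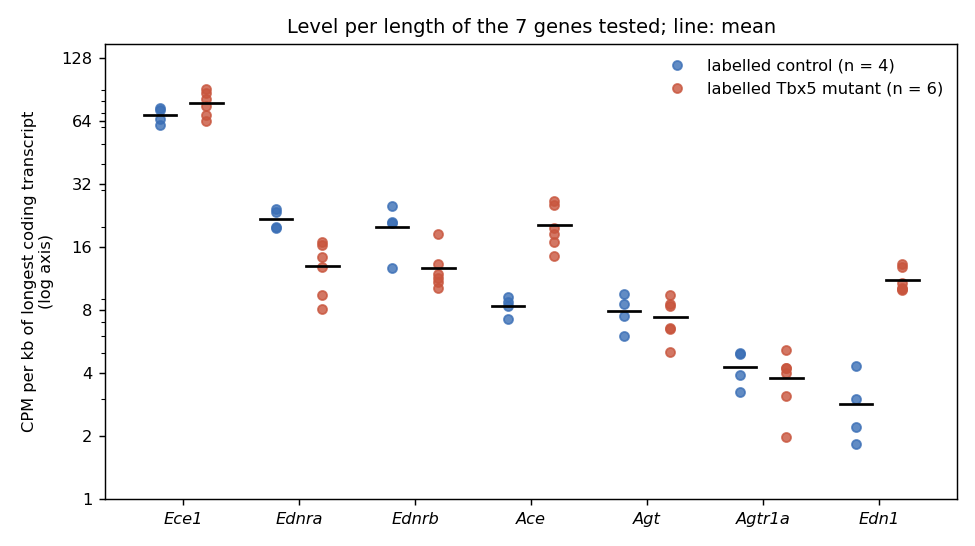
CPM per kb of the longest coding transcript, on a log axis, for the 7 tested genes in order of their control mean; points are libraries (4 labelled control, 6 labelled Tbx5 mutant) and lines are means. Edn1, last in control mice at 2.85, stands beside the 2 endothelin receptors in mutant mice at 11.2, and Ace passes both.

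Ratios of genes within a library do not depend on the scaling between libraries. The log2 ratio of Ednra to Ednrb reads was -0.01 ± 0.33 in control mice (SD, n = 4) and -0.17 ± 0.63 in mutant mice (SD, n = 6), a difference of -0.15 (two-sided exact permutation p = 0.705). The 2 receptors thus had near equal read numbers in both groups on average, while single mutant mice ranged from -1.14 to 0.56. Mutant F1, F2 and F3, labelled female, were at 0.15, 0.56 and 0.28, and M1, M2 and M3, labelled male, at -1.14, -0.6 and -0.23. The mutant mean thus lies between mice on either side of 0, an order seen in the values and not tested. Control M1 and M2 were at 0.46 and -0.24, and F1 and F2 at -0.26 and -0.02. The difference between the groups took the other sign without control M1 and without mutant M1, at 0.01 and 0.04.

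Another ratio, Agtr1a to Agtr2, differed by -0.14 (exact permutation p = 0.743) and rests on Agtr2 counts of 0 to 2, so no direction was read from it.

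**Figure D3:**
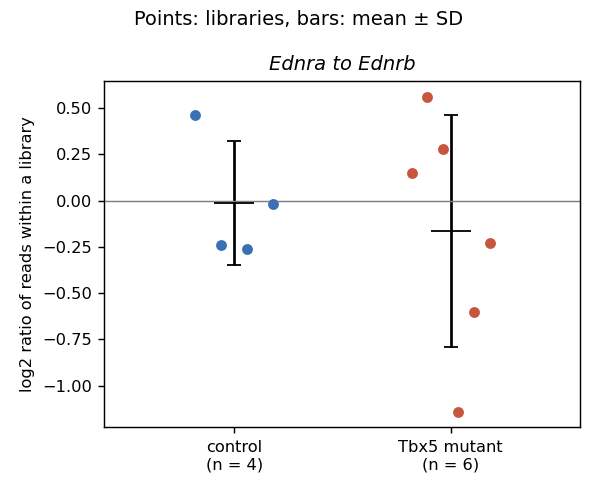
Log2 ratio of Ednra to Ednrb reads within each library (line at 0, equal reads); points are libraries, bars the mean and SD of 4 control and 6 mutant mice. The groups overlap, and the mutant mice spread from -1.14 to 0.56, those labelled female above 0 and those labelled male below.

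Of 21 other renin-angiotensin genes, 11 were tested, 1 was higher and 1 lower in mice labelled mutant, 18.2% in all and near the 15.7% of all genes tested, and the median log2 fold change was 0.09. Nr3c2, the mineralocorticoid receptor through which aldosterone acts, fell. Nr3c2 was at 72.4 to 83.9 CPM in control mice and at 33.1 to 45.4 CPM in mutant mice, without overlap, and its log2 fold change was -1.02 ± 0.09 (SE). Prep, a prolyl endopeptidase that shortens angiotensin peptides, rose from 30.2 ± 4.64 to 45.7 ± 4.64 CPM, a fold of 1.52 just over the threshold; it was under it without control M1 or M2 or mutant F3 or M1. Mas1, the receptor of the shortened peptide, was at 2.57 ± 0.853 and 1.81 ± 0.743 CPM (adjusted p = 0.256). Ren1, the renin gene, was listed at 0 in all 10 libraries, so that the enzyme opening the pathway had no read here.

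The endothelin branch had 4 other genes, of which only Ece2, a second endothelin-converting enzyme, was tested. Ece2 was at 4.23 to 6.43 CPM in control mice and 5.31 to 10.3 CPM in mutant mice, and its log2 fold change of 0.59 (fold 1.51, adjusted p = 0.0429) was just past both thresholds. That call was kept in 11 of the 26 alternatives in which Ece2 was tested. It was lost without any one of control M2, F1 or F2 or mutant F1, F2, M2 or M3. Edn2, the remaining endothelin gene, had 6 reads over the control libraries and 3 over the mutant libraries.

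Of 26 genes that carry or damp the signals of these receptors, such as Gq proteins, phospholipase C, protein kinase C, arrestins and regulators of G-protein signalling, 25 were tested, 1 was higher and 1 lower, 8.0% in all against 15.7% of all genes tested. Rgs2, which shortens Gq signals, fell from 162 ± 27.2 to 58.9 ± 10.3 CPM, a log2 fold change of -1.46 ± 0.13 (SE). All 6 mutant mice (51.0 to 78.5 CPM) were below the lowest control mouse (140 CPM). Prkcb, a protein kinase C isoform also abundant in leukocytes, rose from 7.66 ± 0.723 to 12.5 ± 1.33 CPM (log2 fold change 0.71 ± 0.13, SE). The median of the list was -0.13. Without control M2, or without control F2, 2 genes were called higher, and without control F2, mutant F1 or mutant M1, 2 were called lower.

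Genes known to be induced by angiotensin II or endothelin-1 in heart or vessel cells, many of which respond to other signals as well, were also examined. Of 20 such genes, 18 were tested, 12 were higher and 1 lower, with a median log2 fold change of 1.17. That is 72.2% called against 15.7% of all genes tested, for a list chosen with results of these data known. Acta1, the skeletal alpha-actin of the fetal heart program, had 0 to 6 reads in control libraries and 26 to 54 in mutant libraries (log2 fold change 4.07 ± 0.43, SE).

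The chemokine gene Ccl2 rose 6.70-fold, from a low level of 0.853 ± 0.780 to 5.79 ± 2.51 CPM. The matrix genes Postn, Thbs1, Col1a1 and Col3a1 rose 5.02-, 3.78-, 2.48- and 2.41-fold. Of the natriuretic peptides, Nppb rose from 419 ± 61.8 to 1090 ± 347 CPM, whereas Nppa fell from 26800 ± 1750 to 17100 ± 5450 CPM, a log2 fold change of -0.65 (adjusted p = 0.0426). The Nppa call was kept in 14 of 27 alternatives, and it was lost without any one control mouse or without mutant F1, F2, M1 or M2.

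**Figure D4:**
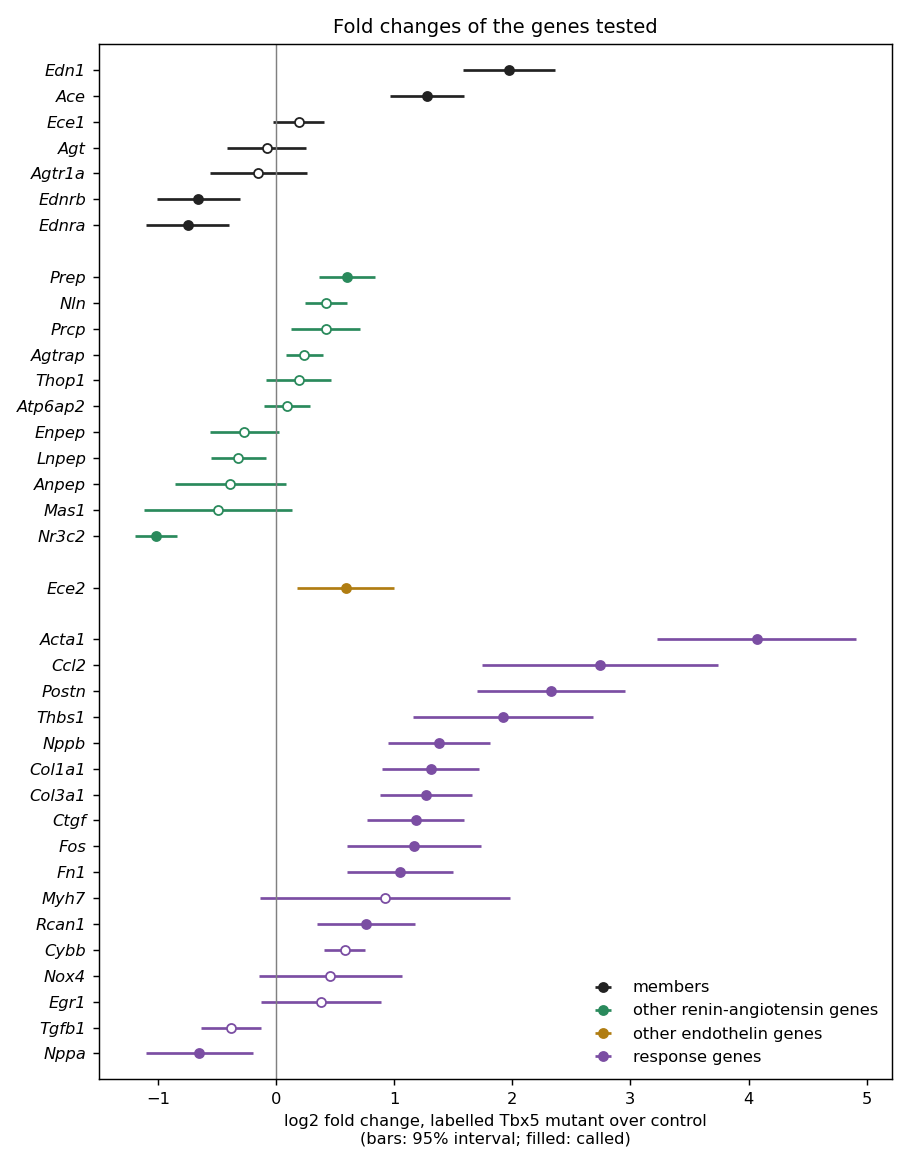
Log2 fold change of mice labelled mutant over control for the 7 tested genes of the 2 systems (black), other renin-angiotensin genes (green), the other endothelin gene tested (ochre) and 17 of the tested response genes (purple); bars are 1.96 standard errors and filled points were called. Edn1 at 1.97 and Ace at 1.28 lead the black points, Nr3c2 at -1.02 is the lowest green point, and 11 filled purple points lie to the right of 0.

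Marker genes were summed by cell type as a description. Such sums cannot tell a change in cell number from a change in RNA per cell. Endothelial and endocardial markers, from cells in which Edn1, Ace and Ednrb are known to be expressed, summed to 2380 to 3720 CPM in control and 3190 to 4340 CPM in mutant mice. Of these 7 markers 1 was called, Vwf, higher at a log2 fold change of 0.70. The other 6 were Emcn at 0.55, Pecam1 at 0.23, Cdh5 at 0.10, Tek at -0.03, Kdr at -0.24 and Npr3 at -0.29, and without Vwf the sum was 1510 to 2170 CPM in control and 1550 to 2080 CPM in mutant mice. Set against the sum of all 7, Edn1 was 0.141% to 0.25% in control and 0.497% to 0.896% in mutant mice, without overlap, and Ace 0.957% to 1.90% and 1.89% to 4.10%, touching at one edge. Against the sum without Vwf, left out after the values were seen, Edn1 was 0.214% to 0.427% and 1.14% to 1.84%, and Ace 1.64% to 2.99% and 3.42% to 8.43%, both without overlap. Ednrb was 1.41% to 3.64% of the sum of 7 in control and 1.08% to 2.00% in mutant mice, and 2.40% to 5.75% and 2.44% to 3.63% of the sum without Vwf, overlapping in both.

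Smooth muscle and pericyte markers, from cells that carry Ednra and Agtr1a, summed to 289 to 362 CPM in control and 374 to 808 CPM in mutant mice, with 2 of 7 called, both higher (Acta2 and Tagln, at 1.98 and 2.01). The other 5 were Cspg4 at 0.51, Pdgfrb at 0.41, Myh11 at 0.23, Rgs5 at -0.22 and Kcnj8 at -0.27, and they summed to 211 to 278 CPM in control and 238 to 299 CPM in mutant mice. Ednra was 22.5% to 25.6% of the sum of 7 in control and 4.37% to 9.30% in mutant mice, and 30.2% to 35.9% and 11% to 23.7% of the sum of these 5, chosen after the values were seen; neither pair of ranges overlapped. Fibroblast markers summed to 2290 to 2870 and 2420 to 3260 CPM, with 1 of 5 called, Col1a1, higher at 1.31. The others were Tcf21 at 0.57, Lum at 0.45, Dcn at -0.01 and Pdgfra at -0.4. Leukocyte markers were higher in all 4 tested of 5, summing to 163 to 235 and 276 to 375 CPM. Ace, which macrophages also express, was 17.4% to 26.2% of that sum in control and 25.8% to 37.6% in mutant mice, overlapping at one edge. Of the 6 cardiomyocyte markers taken for the atrium, not all of them confined to it, 3 were lower (Myl7, Nppa and Sln) and 1 higher (Tnnt2). The others were Myl4 at -0.44 and Myh6 at 0.1, and the 6 summed to 64000 to 76700 and 48700 to 62800 CPM. Of the 3 ventricular markers Myl2 and Myl3 were higher, from a sum of 35.0 to 57.7 to 603 to 844 CPM, while Irx4 was at or near 0. Mast cell markers, which include chymases that also form angiotensin II, summed to 6.14 to 10.6 and 8.40 to 13.8 CPM, with 0 called of 1 tested. The part of these cell types in the changes of Edn1, Ace, Ednra and Ednrb was not tested, beyond the ratios given. Ednra, which muscle cells also carry, was not set against the cardiomyocyte markers.

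Genes that varied most like the called genes from mouse to mouse were found from the deviations of log2 CPM from the group mean over the 10 libraries, as a description. Edn1 was followed most closely by Dpy19l1 (Pearson r = 0.957), Fam65b (0.945) and Klhl6 (0.931). For Ace these were Arf4 (0.955), Uxs1 (0.947) and P2ry6 (0.944). Ednra varied most like Lta4h (0.964), Rreb1 (0.917) and Tbc1d5 (0.914), and Ednrb most like Nlrc4 (0.945), Mlf1 (0.938) and Apbb1 (0.915). These are the highest of 13083 correlations for each gene, and the points share library and depth. None of the 12 was named for more than one of the 4 genes, and of the 12 only Uxs1, Klhl6 and Mlf1 were called, all higher.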

How the data were processed

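The authors deposited 1 table with 1 column of read counts per gene for each of 10 libraries, whole numbers without normalization, and a signal per library made by dividing each count by a DESeq2 size factor. The submitters' processing notes name FastQC, TopHat2 2.0.11, featureCounts, DESeq2 and mm10; the annotation is not given in the sources used here. The labels describe poly(A), TruSeq and Ribo-Zero preparations side by side after globin removal, so the selection of RNA is uncertain. Deposited columns of the authors' own comparison were not used: log2 fold change and its error, Wald score, p-value and adjusted p-value, fold as a linear ratio, and mean signal.

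Counts were analysed in edgeR 4.0.16 (R 4.3.3): genes passing its expression filter, TMM scaling and the quasi-likelihood test with group as its single term in all 10 libraries, prior count 0.125, Benjamini-Hochberg adjustment over all 13084 genes tested. Standard errors are the log2 fold change over the root of F. On counts simulated from these libraries, 161 of 200 genes of 12985 changed by a fold of 2 were recovered, with 7 other calls. Permutation tests were exact and two-sided over 210 splits of the mice; for ratios, 0.5 was added to each count. No pair of replicate libraries agreed within sampling noise. Same-numbered mice of the 2 groups did not deviate together (mean r = -0.00712 over 4 pairs), so numbers were not used as pairs.

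The 9 genes and the lists were chosen with earlier results of these data known. Named were the 9 genes, from each list the called genes (at most 8 by size of change) with Ren1, Agtr1b, Mas1, Edn2 and Ece2, the 3 genes most like each called gene, Tbx5, Rn45s and markers; some genes that this rule names are not reported here. Gene positions and lengths are from GENCODE M21 (GRCm38, the build of mm10); symbols were matched exactly. Alternatives were other filters, prior counts, scalings, tools, sex covariates, a replicate block, length and GC corrections, thresholds, and each library left out. Intervals of log2 fold changes come from these standard errors and so include the spread between mice. Floors of 3 counts cover counting error only, since reads carry no molecular identifiers. Marker sums without the called markers were added after the data were seen.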

Additional observations from a re-analysis of the deposited data

Results flagged for a closer look

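Edn3 in mice labelled mutant stood apart in 1 library: mutant F2 had 0.267 CPM, from 2 reads, and the other 5 mutant mice had 0. This lies under the 3 counts taken as detectable. By the gap to the nearest mouse over the range of the group, it was the 1 value to stand apart among 23 groups examined, where chance gives about 1.2. With the other 5 mice at 0 the gap equals the range, so any read in 1 mouse would be flagged. The chance figure does not cover such counts, and nothing was read from this flag.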

How the results depend on the processing

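Edn1 and Ace were called higher in all 27 alternatives, with log2 fold changes of 1.81 to 2.26 and 1.19 to 1.38; Ednra kept its direction and an adjusted p under 0.05 in all fits (-0.89 to -0.63), and Ednrb its direction (-0.82 to -0.52). The number of the 9 genes called lower went from 2 to 1 with the replicate block, alone or with the length trend removed, and at an adjusted p under 0.01, and to 0 at a fold over 2; leaving out libraries gave 1 to 2. The gene lost was Ednrb in the first 3: -0.66 (adjusted p = 0.0785) with the replicate block and -0.63 (0.0945) with the length trend removed too. The numbers do not pair the mice, and no other call of the 9 genes changed with the block. Agt changed sign without control F2, at 0.0352 (-0.18 to 0.0352 leaving out libraries). Other renin-angiotensin genes called higher went from 1 to 0 at a fold over 2 and to 4 with no fold threshold (0 to 1 leaving out libraries), and called lower to 2 with no filter. The Ece2 call, the only 1 of its list, went to 0 under prior count 5, a mean count of at least 50, limma, the replicate block, the length or GC trend removed, the block with length, an adjusted p under 0.01 and a fold over 2 (0 to 1 leaving out libraries). Receptor signalling genes called higher went from 1 to 2 with the GC trend removed, 0 at a fold over 2 and 3 with no fold threshold (1 to 2 leaving out libraries), and called lower to 2 with no fold threshold (1 to 2). Response genes called lower went from 1 to 0 under upper-quartile scaling, limma, an adjusted p under 0.01 and a fold over 2, and to 2 with no fold threshold (0 to 1). With no filter the number stayed at 1, but Nppa was not called there (edgeR adjusted p = 0.0535) and another gene of the list was. Response genes called higher were 10 to 13. Differences in log2 ratio were -0.30 to 0.04 for Ednra to Ednrb, with the sign turned at 0.01 and 0.04 and -0.69 to 0.30 for Agtr1a to Agtr2, turned at 0.01, 0.09, 0.11, 0.24 and 0.30. Over all genes, 2049 calls became 906 at a fold over 2, 4096 with no fold threshold and 1284 at a mean count of at least 50. The cause of these changes was not tested. Log2 fold change fell with transcript length over all genes (Spearman rho = -0.314), and Agtr2, Edn3 and Edn2 lie at a depth where only large differences could be seen.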
